A study of Homo sapiens with 4 samples.

Results

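The endoplasmic reticulum (ER) folding machinery is described here through 35 named genes, which were taken from a fixed list of names: chaperones and cochaperones, lectin chaperones, disulfide and prolyl isomerases, calcium-binding CREC proteins, the protein translocation channel, ER-associated degradation, and the sensors and transcription factor of the unfolded protein response. The rows of each name were summed over its transcripts, and 33 of the 35 genes had enough reads in the coding sequence to be tested, among 10469 tested genes of 14355 gene names listed. The measurement was ribosome profiling, in which RNase I removes RNA that ribosomes do not cover and the protected fragments are sequenced. The cells were Hermes 4B, an immortalised human melanocyte line labelled WT, grown in RPMI1640 with 10% FBS. The medium also held TPA (200 nM), stem cell factor (10 ng/mL), endothelin-1 (10 nM) and cholera toxin (200 pM). They received 25 to 50 nM of either control siRNA or siRNA against CDH3-AS1, the antisense RNA of the P-cadherin gene that the study asks about, and the dishes were washed with 100 µg/mL cycloheximide before harvest. Each siRNA had 2 libraries, replicate 1 in batch 1 and replicate 2 in batch 2, and the level of CDH3-AS1 itself was not analysed here, so the knockdown in these libraries was not checked.

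Proteins that enter the secretory pathway pass through the SEC61 channel into the ER lumen, where HSPA5 (BiP), HSP90B1 (GRP94), the lectin chaperones and the disulfide isomerases fold them. Proteins that fail to fold are returned to the cytosol and degraded. When unfolded protein builds up, the sensors ERN1 (IRE1), EIF2AK3 (PERK) and ATF6 switch on a response in which ERN1 splices the XBP1 mRNA, EIF2AK3 lowers general translation while favouring ATF4, and ATF6 and XBP1 raise chaperone genes. Melanocytes send large amounts of glycoprotein, tyrosinase among them, through this pathway.

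The promoter element through which ATF6 acts, the ER stress element, is CCAAT, any 9 bases, then CCACG. It was searched on both strands of the RefSeq promoter table (GRCh38.p14, 250 bases before to 50 bases after each gene start), which held 33 of the 35 genes. The element was present in 8 of these 33 genes (24.2%) and in 25 of all 27305 genes of the table (0.0916%), or 27 of 35116 promoters (0.0769%). The 33 genes have 44 promoters in the table. A shorter relative, ERSE-II (ATTGG, 1 base, CCACG), was searched as well after the other results were seen. It was present in the promoters of HERPUD1, HYOU1 and SDF2L1, and in 19 of all promoters (0.0541%). The 8 genes with the longer element were CALR, CANX, CRELD2, ERO1B, HSP90B1, HSPA5, PDIA6 and XBP1. The stretches below show it for 5 genes that the results describe, written 5′ to 3′ on the strand of the gene, with the element in capitals. In CALR and HSP90B1 it lies on the opposite strand and so reads CGTGG, 9 bases, ATTGG. HSP90B1 has a second copy farther upstream, which is not printed.
HSPA5: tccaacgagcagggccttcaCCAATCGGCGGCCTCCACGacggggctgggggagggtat
HSP90B1: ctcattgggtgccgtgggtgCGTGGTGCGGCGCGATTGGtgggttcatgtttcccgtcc
CALR: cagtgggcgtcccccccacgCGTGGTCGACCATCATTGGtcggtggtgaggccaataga
PDIA6: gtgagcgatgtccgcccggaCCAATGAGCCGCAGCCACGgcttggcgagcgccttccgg
XBP1: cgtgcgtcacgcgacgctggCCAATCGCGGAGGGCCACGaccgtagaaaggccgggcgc

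The HSPA5 stretch is chr9:125241371-125241429 on the minus strand, with the element 66 to 48 bases before the gene start. The HSP90B1 stretch is chr12:103930301-103930359 on the plus strand, with the element 89 to 71 bases before the start. The CALR stretch is chr19:12938364-12938422 on the plus strand, with the element 225 to 207 bases before the start. The PDIA6 stretch is chr2:10812833-10812891 on the minus strand. Its element lies 86 to 68 bases before an alternative start listed in the promoter table, which is inside the PDIA6 gene as annotated (chr2:10783391-10837712). The XBP1 stretch is chr22:28800583-28800641 on the minus strand, with the element 52 to 34 bases before the start. A match is a description of these letters and says nothing of binding.

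Library totals over all regions were 2034854 and 5994485 reads for control siRNA replicates 1 and 2, and 6759850 and 2858835 reads for CDH3-AS1 siRNA replicates 1 and 2. All 7 melanocyte markers had reads in every library. Control replicate 1 stood apart: 14 skeletal muscle markers summed to 4137 CPM there, that is, reads scaled by the coding-sequence total of the library,, against 4.21 to 10.9 CPM in the other libraries, and 6 fibroblast markers to 492 CPM against 0.533 to 4.88 CPM, with COL3A1, TNNT3 and MYLPF at 0 in all libraries. Keratinocyte markers summed to between 8.03 and 35.3 CPM, and 3 of 4 plasma cell markers, including the immunoglobulin genes IGHG1 and IGKC of a cell type rich in ER, were at 0 in every library. Nothing in the labels says that replicates came from separate cultures, so the p-values measure the spread between these libraries, which may be technical, and with 2 libraries against 2 an exact two-sided permutation test of a single value cannot go below 0.333.

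The 35 genes together took 1.00% of coding-sequence reads in control replicate 1, 1.30% in CDH3-AS1 replicate 1, 1.44% in control replicate 2 and 1.79% in CDH3-AS1 replicate 2. Both batch 2 libraries therefore lay above both batch 1 libraries, and within each batch the CDH3-AS1 library lay above its control. The order of the genes by level was set per kilobase of the longest listed coding sequence with reads (CPM per kb). CALR, the calcium-binding lectin chaperone of the lumen, led at 2801 CPM per kb on average over the 4 libraries, and PPIB (cyclophilin B), a prolyl isomerase, followed at 2391. These neighbours overlapped, since CALR ranged from 2023 to 3674 CPM per kb and PPIB from 2019 to 3145. P4HB, a protein disulfide isomerase and subunit of prolyl 4-hydroxylase, averaged 975 CPM per kb, the CREC protein CALU 753, HSP90B1 601 and the disulfide isomerase PDIA6 575. HSPA5 averaged 335 CPM per kb, in between the channel subunit SEC61A1 at 377 and the translocon-associated SSR1 at 315. The regulators lay far lower. ATF6 averaged 79.8 CPM per kb and XBP1 48.5, while EIF2AK3 averaged 8.64 and ERN1 5.83 CPM per kb. ERO1B, the second ER oxidoreductin, averaged 5.96 CPM per kb against 110 for its paralogue ERO1A.

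**Figure D1:**
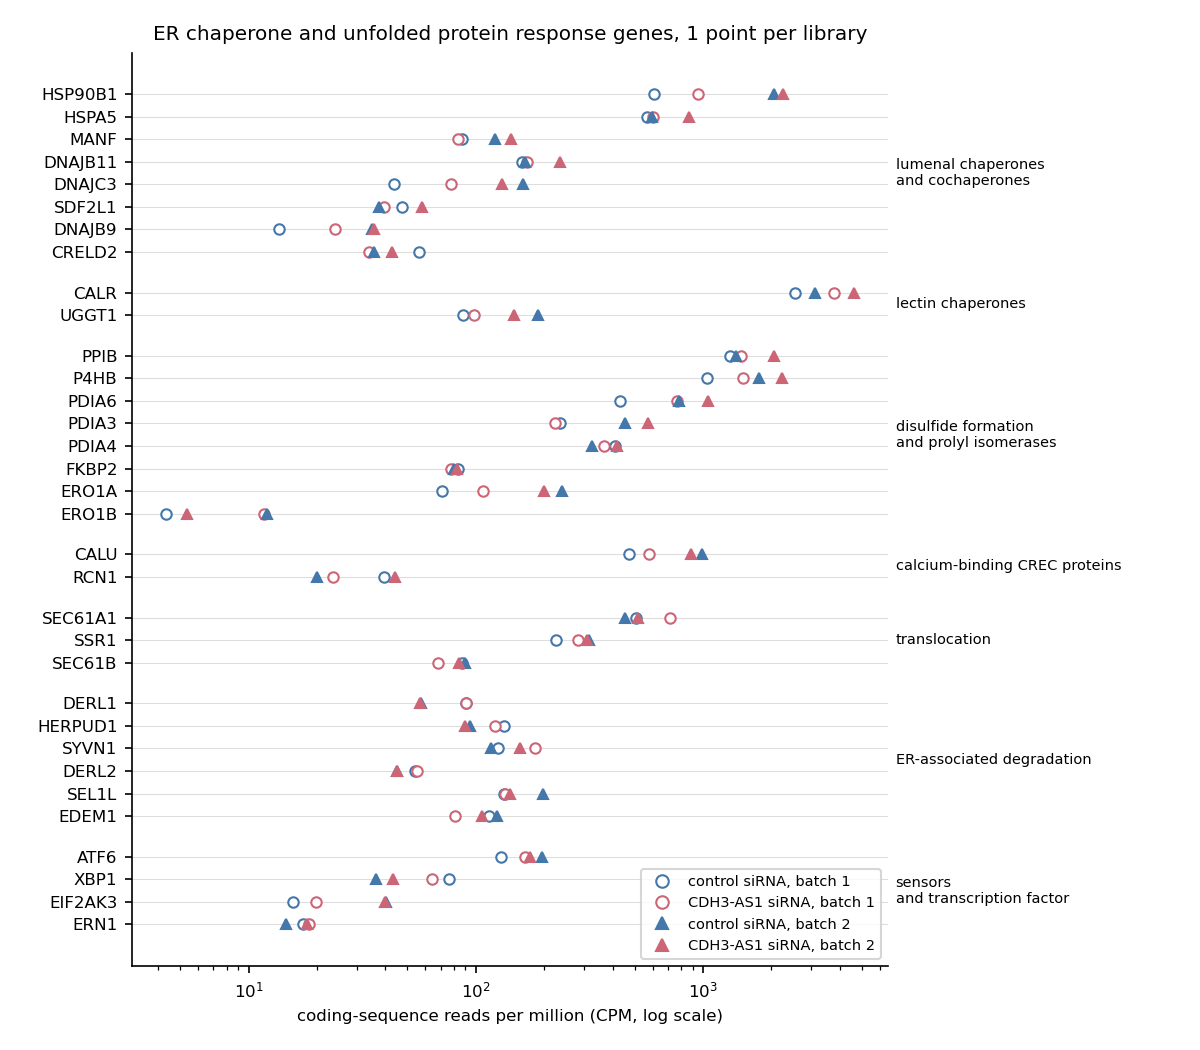
Coding-sequence level in CPM (log axis) of the 33 tested genes, grouped by role and ordered within a role by mean level per kilobase; each point is 1 library, blue for control siRNA and red for CDH3-AS1 siRNA, open circles for batch 1 and filled triangles for batch 2. For HSP90B1 the batch 1 libraries lie at 609 and 948 CPM and the batch 2 libraries at 2058 and 2262 CPM, while HSPA5 spans only 565 to 871 CPM.

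CANX and HYOU1 were the members not tested. CANX (calnexin, the membrane-bound partner of CALR) is listed with 0 coding-sequence reads in every library, yet its 5′ UTR held 6 reads in CDH3-AS1 replicate 1, 46 in control replicate 2 and 35 in CDH3-AS1 replicate 2. HYOU1, an HSP70-type chaperone that acts as nucleotide exchange factor of HSPA5, had 1 coding-sequence read in all, in CDH3-AS1 replicate 1. How reads that match several listed transcripts were counted is not given in the sources used here, so these zeros are the files' values and set no limit on translation of either gene.

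The first comparison asks which of these genes differed between CDH3-AS1 siRNA and control siRNA. CALR was the one gene whose 2 CDH3-AS1 libraries lay above both controls with a difference of at least 0.5 (log2) within each batch. Its level was 2537 CPM in control replicate 1, 3775 in CDH3-AS1 replicate 1, 3129 in control replicate 2 and 4607 in CDH3-AS1 replicate 2. The CDH3-AS1 libraries lay 0.61 (log2 CPM) above the control in batch 1 and 0.61 in batch 2. The means were 4191 ± 589 CPM (SD, n = 2) and 2833 ± 419 CPM (SD, n = 2). This pattern was met by 3.32% of all tested genes, so 1 of 33 is near the background. edgeR's quasi-likelihood test gave CALR a log2 fold change of 0.61 ± 0.34 (SE) with an adjusted p of 1.00, and with the batch as a replicate block 0.61 ± 0.19 (SE) with an adjusted p of 0.0719.

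No gene of the 33 passed an adjusted p of 0.05 between the siRNAs in edgeR, where 0% of all 10469 genes passed. At the same adjusted threshold DESeq2 called 0 of the 33 and 2 of all genes, and limma on RPKM called 0 of either. An unadjusted p under 0.05 was given to 0 of the 33 by each tool. Of all genes it was given to 225 by edgeR, 178 by DESeq2 and 257 by limma. With the replicate block edgeR called 170 genes (1.62%), again none of the 33. An unadjusted p under 0.05 was given to 1025 of all genes (9.79%) in that fit and to 5 of the 33: CALR, PDIA6, P4HB, SYVN1 and HSP90B1. The median log2 fold change was 0.14 over the 33 genes and -0.03 over all tested genes. In both batches 15 of the 33 genes were higher with CDH3-AS1 siRNA, where 26.5% of all genes were, and 3 were lower, where 27.8% of all genes were. The remaining 15 went opposite ways in the batches.

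Of the 8 tested lumenal chaperones and cochaperones, 4 were higher with CDH3-AS1 siRNA in both batches and 4 changed sides. HSPA5 was at 565 CPM in control replicate 1, 602 in CDH3-AS1 replicate 1, 598 in control replicate 2 and 871 in CDH3-AS1 replicate 2. The CDH3-AS1 libraries lay above the controls, but by 0.13 (log2) in batch 1 and 0.59 in batch 2. DNAJB11, an HSPA5 cochaperone, had the same shape, with controls at 159 and 165 CPM and CDH3-AS1 libraries at 168 and 235 CPM. HSP90B1 differed by 0.67 (log2) in batch 1 and 0.19 in batch 2, and its groups overlapped because the batches lay far apart. DNAJC3 differed by 0.87 and -0.25 (log2), SDF2L1 by -0.23 and 0.69, CRELD2 by -0.69 and 0.31 and MANF by -0.02 and 0.28.

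Disulfide and prolyl isomerases held several of the higher values. PDIA6 was at 433 CPM in control replicate 1, 772 in CDH3-AS1 replicate 1, 781 in control replicate 2 and 1056 in CDH3-AS1 replicate 2. The CDH3-AS1 library was higher within each batch, by 0.87 and 0.49 (log2), while the groups overlapped. P4HB was higher within each batch by 0.57 and 0.39 (log2), from 1040 to 1505 CPM and from 1757 to 2224 CPM. PPIB was at 1315 and 1392 CPM in the controls and 1472 and 2048 CPM with CDH3-AS1 siRNA, differences of 0.20 and 0.61 (log2). The other members of this role went opposite ways in the batches. Among them, PDIA3, the isomerase that works with CALR and CANX, differed by -0.05 and 0.38 (log2), and ERO1B, with only 8 and 14 coding-sequence reads in its 2 shallowest libraries, by 1.36 and -1.06.

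In the degradation and translocation roles, SYVN1, the E3 ligase that marks misfolded ER proteins, was at 125 and 117 CPM in the controls and at 182 and 156 CPM with CDH3-AS1 siRNA, which is 0.57 and 0.47 (log2) higher within the batches without overlap. SEC61A1, the pore of the channel, was at 507 and 453 CPM in the controls and at 719 and 520 CPM with CDH3-AS1 siRNA, 0.54 and 0.25 (log2) higher. This depended on the sum over its transcripts. The edgeR log2 fold change of 0.41 was 0.12 with the transcript of most reads, and limma on log2(RPKM + 1) gave 0.09. EDEM1, a lectin that extracts glycoproteins for degradation, was at 80.7 and 106 CPM with CDH3-AS1 siRNA and at 115 and 125 CPM in the controls. The derlins DERL1 and DERL2, membrane proteins of the degradation channel, differed by 0.02 to 0.07 (log2) within the batches. On edgeR's TMM-scaled log2 CPM, 7 members in all lay above both controls without overlap (HSPA5, CALR, DNAJB11, SYVN1, ERN1, SEC61A1 and PPIB), as did 13.3% of all tested genes, and EDEM1 alone lay below both, as did 14.1%. Without TMM scaling SEC61B lay below both controls as well, by its CPM of 68.4 and 83.9 against 86.8 and 89.2.

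For the members not yet described the ranges were as follows. FKBP2, a prolyl isomerase, lay between 77.5 and 83.6 CPM in the 4 libraries, PDIA4, a disulfide isomerase, between 325 and 418 CPM, and SEL1L, the partner of SYVN1, between 133 and 197 CPM. SDF2L1 and CRELD2, small lumenal folding factors, lay between 37.3 and 58.2 CPM and between 34.0 and 56.4 CPM. DNAJB9 lay between 13.6 and 35.6 CPM, with differences of 0.83 and 0.08 (log2) within the batches, and SSR1 between 225 and 317 CPM, with differences of 0.35 and 0.02. RCN1, the other CREC protein, was at 39.6 and 19.9 CPM in the controls and at 23.5 and 44.1 CPM with CDH3-AS1 siRNA, so its difference was -0.71 (log2) in batch 1 and 1.18 in batch 2.

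The regulators showed no common direction. ERN1 was at 17.4 and 14.6 CPM in the controls and 18.4 and 18.0 CPM with CDH3-AS1 siRNA, from 32 to 117 coding-sequence reads per library. ATF6 was at 129 and 195 CPM in the controls and 164 and 172 CPM with CDH3-AS1 siRNA, so that the latter lay between the former. XBP1 was at 76.0 and 36.2 CPM in the controls and 64.0 and 43.3 CPM with CDH3-AS1 siRNA. EIF2AK3 was at 15.7 and 40.3 CPM in the controls and 19.8 and 39.9 CPM with CDH3-AS1 siRNA. For XBP1 and EIF2AK3 the batches lay farther apart than the siRNAs.

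**Figure D2:**
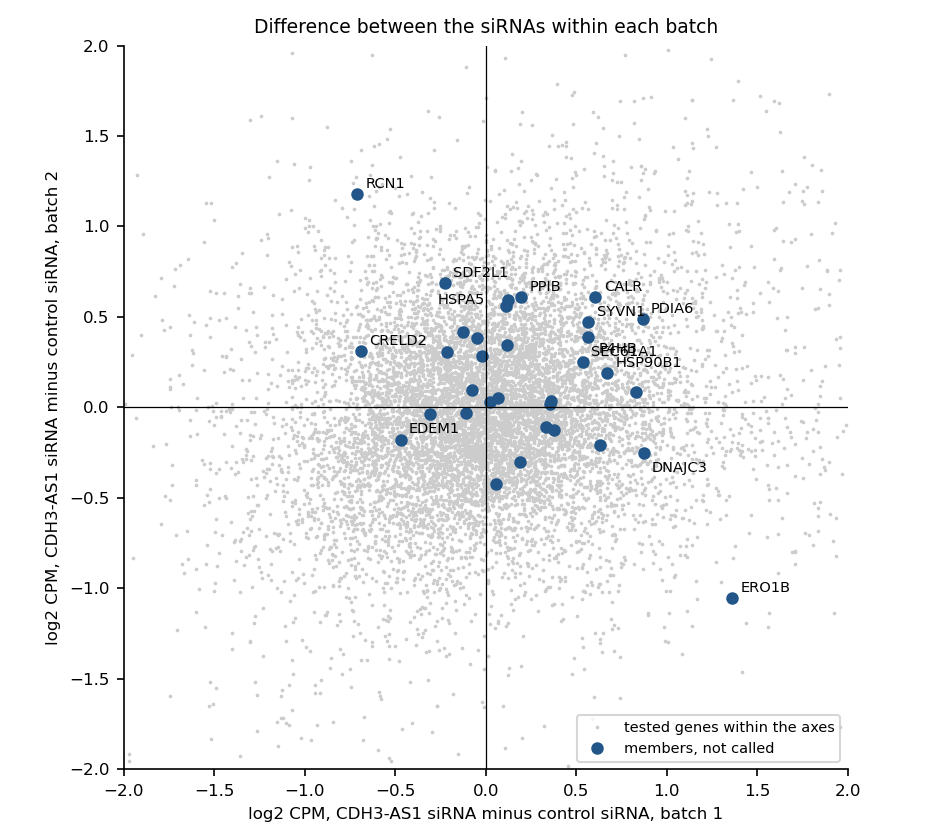
Difference in log2 CPM between CDH3-AS1 siRNA and control siRNA in batch 1 (horizontal) and batch 2 (vertical) for the 33 genes (blue), with tested genes whose values lie within the axes in grey. The upper right quadrant holds 15 of the 33 genes and the lower left 3; CALR lies at 0.61 in both batches, and RCN1 and ERO1B lie far out in the quadrants of opposite sign.

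The second comparison, batch 2 against batch 1 with the siRNA as a term in the fit, describes how the same genes varied between libraries of one treatment. What differed between the batches is not stated in the labels, and control replicate 1 with its muscle and fibroblast reads is one of the batch 1 libraries, so the difference within the CDH3-AS1 libraries alone is given beside each called member. HSP90B1, the HSP90 of the ER lumen, was at 609 and 948 CPM in batch 1 and at 2058 and 2262 CPM in batch 2. It rose by 1.53 ± 0.21 (log2, SE), with an adjusted p of 9.01e-11 in edgeR, and the difference was 1.29 (log2) between the CDH3-AS1 libraries and 1.77 between the controls.

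Of the 33 genes, 9 were called in this comparison, all higher in batch 2, where 9.52% of all tested genes were called higher and 6.30% lower. Beside HSP90B1 these were DNAJC3, the disulfide enzymes ERO1A, PDIA3, P4HB and PDIA6, the sensor EIF2AK3, CALU, and UGGT1. The median log2 fold change was 0.31 over the 33 genes and 0.01 over all tested genes. Between the CDH3-AS1 libraries alone the members' median was 0.43, and between the controls alone 0.14. Other tools called fewer: DESeq2 found 5 of the 33 (HSP90B1, ERO1A, DNAJC3, PDIA3 and CALU), limma on log2(RPKM + 1) called HSP90B1 alone, and edgeR without the siRNA term called 4 (HSP90B1, ERO1A, DNAJC3 and PDIA3).

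ERO1A, the oxidase that keeps the isomerases oxidised, was at 71.1 and 108 CPM in batch 1 and at 240 and 200 CPM in batch 2, and rose by 1.33 ± 0.26 (log2, SE), with an adjusted p of 1.81e-05 in edgeR. Between the CDH3-AS1 libraries alone the difference was 0.93 (log2). DNAJC3, an HSPA5 cochaperone also known as an inhibitor of EIF2AK3, was at 43.4 and 78.1 CPM in batch 1 and at 162 and 131 CPM in batch 2. It rose by 1.31 ± 0.28 (log2, SE), with an adjusted p of 7.03e-05. Its difference between the batches was 1.91 (log2) in the controls and 0.78 in the CDH3-AS1 libraries.

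PDIA3 was at 236 and 222 CPM in batch 1 and 454 and 572 CPM in batch 2, and rose by 1.18 ± 0.24 (log2, SE), with an adjusted p of 2.74e-05 in edgeR and a difference of 1.40 between the CDH3-AS1 libraries. EIF2AK3 rose by 1.17 ± 0.35 (log2, SE), with an adjusted p of 0.0084, on 29 to 227 coding-sequence reads per library. Its libraries lay at 15.7 and 19.8 CPM in batch 1 and at 40.3 and 39.9 CPM in batch 2, with a difference of 1.02 (log2) between the CDH3-AS1 libraries. CALU was at 471 and 579 CPM in batch 1 and 992 and 887 CPM in batch 2, with a log2 difference of 0.87 ± 0.22 (SE) overall and 0.65 between the CDH3-AS1 libraries. With the transcript of most reads in place of the sum the CALU difference was 0.44 and not called.

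The remaining called genes changed less. UGGT1, the glucosyltransferase that sends unfolded glycoproteins back to CALR and CANX, was at 87.9 and 98.0 CPM in batch 1 and at 187 and 147 CPM in batch 2, with a log2 difference of 0.86 ± 0.26 (SE) overall and 0.62 between the CDH3-AS1 libraries. In limma it was 0.41 and not called. P4HB differed by 0.69 ± 0.21 (log2, SE), with 0.60 between the CDH3-AS1 libraries, and lost its call with the transcript of most reads, where 7 members were called. PDIA6 differed by 0.68 ± 0.22 (log2, SE), and the batch 1 library with CDH3-AS1 siRNA, at 772 CPM, almost reached the batch 2 control at 781 CPM. Within each siRNA the batch 2 library lay at least 0.5 (log2) above the batch 1 library in 8 of the 9 genes, and for PDIA6 the smaller of these differences, between the CDH3-AS1 libraries, was 0.49. The 9 genes were called from these same libraries, so this count describes them and is no separate support.

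HSPA5, the most used marker of the unfolded protein response, was not among the called genes. Its batch difference was 0.10 (log2) in the controls and 0.57 in the CDH3-AS1 libraries. CALR lay at 0.32 in both, with an adjusted p of 0.261 in edgeR. MANF, a secreted ER stress factor, was at 86.8 and 83.5 CPM in batch 1 and 121 and 142 CPM in batch 2, with an adjusted p of 0.0788, which was 0.0436 with a minimum of 50 reads per library. The HSPA5 cochaperone DNAJB9 had an adjusted p of 0.0506 on 25 to 196 coding-sequence reads per library.

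Among the 9 members with a batch difference below 0, XBP1 had the lowest value. XBP1 was at 76.0 and 64.0 CPM in batch 1 and at 36.2 and 43.3 CPM in batch 2, a log2 difference of -0.78 ± 0.30 (SE) with an adjusted p of 0.0530 in edgeR. This passed the threshold with size factors of the DESeq2 type, with library totals and with a minimum of 50 reads per library, where the adjusted p was 0.0453, 0.0425 and 0.0474. DERL1 was at 90.6 and 90.1 CPM in batch 1 and 57.6 and 56.7 CPM in batch 2, and HERPUD1, a membrane protein of ER-associated degradation, at 134 and 121 CPM in batch 1 and 94.7 and 89.3 CPM in batch 2. Neither was called, with adjusted p of 0.113 and 0.277.

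**Figure D3:**
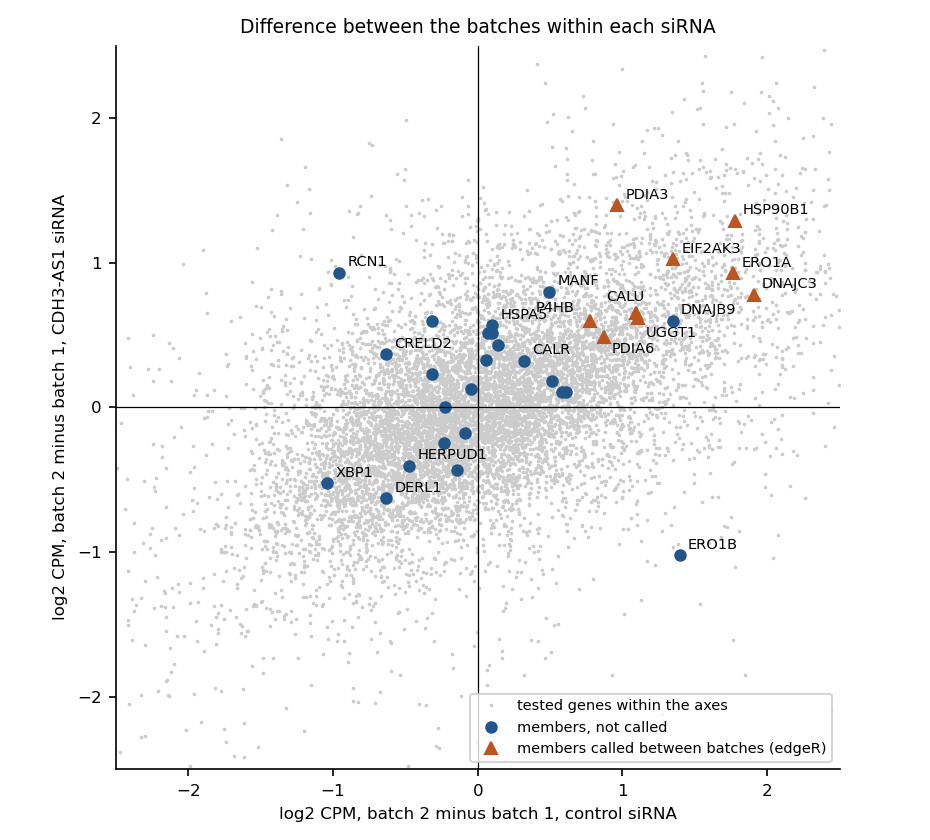
Difference in log2 CPM between batch 2 and batch 1 in the control libraries (horizontal) and in the CDH3-AS1 libraries (vertical) for the 33 genes, with tested genes whose values lie within the axes in grey; orange triangles are the 9 genes called by edgeR. All 9 triangles lie in the upper right quadrant, HSP90B1 at 1.77 and 1.29, while XBP1, DERL1 and HERPUD1 lie in the lower left and ERO1B and RCN1 have opposite signs.

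By role, the lumenal chaperones summed to 1580 and 1977 CPM in batch 1 and to 3212 and 3777 CPM in batch 2, and the lectin chaperones to 2625 and 3873 CPM in batch 1 and to 3317 and 4754 CPM in batch 2. The degradation genes summed to 651 and 663 CPM in batch 1 and to 636 and 595 CPM in batch 2, with 0 of 6 called. The 3 translocation genes, with 0 of 3 called, summed to between 819 and 1068 CPM. Of the 9 called members, 8 were folding genes and 1 was a sensor. The 7 tested members with the ER stress element had a median batch difference of 0.32 (log2) and the 24 tested members without it 0.30, and both sets held called genes, 2 and 6.

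The same comparison in 4 further lists of pathway genes is given by counts. Each count stands against the 9.52% of all tested genes called higher and the 6.30% called lower. Of 33 tested other ER folding genes, 8 were called higher in batch 2 and 1 lower. DNAJC10, an ER disulfide reductase, rose by 1.46 ± 0.28 (log2, SE), with an adjusted p of 1.17e-05 in edgeR. SERPINH1 (HSP47), the collagen chaperone, was the 1 that fell, by 0.65 (log2), and it was at 668 and 794 CPM in batch 1 and at 297 and 697 CPM in batch 2. The batch difference of SERPINH1 was -1.15 (log2) between the controls but -0.15 between the CDH3-AS1 libraries. SERPINH1 was also the one gene of these lists called between the siRNAs, in the fit with the replicate block, where it was 0.78 ± 0.23 (log2, SE) higher with CDH3-AS1 siRNA at an adjusted p of 0.0413. The within-batch differences were 0.28 and 1.28 (log2). SERPINH1 was not called between the siRNAs by DESeq2 or limma with the same block, and without the block its log2 difference moved from 0.67 to 1.39 without control replicate 1 and to 0.22 without control replicate 2. Its batch call was lost in DESeq2, in limma, with the transcript of most reads and without the siRNA term. No gene of the 4 lists was called between the siRNAs without the block.

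Of 22 tested other degradation genes, 3 were called higher in batch 2 and 2 lower, and of 33 tested translocon, signal peptidase and N-glycosylation genes 6 were called higher and 2 lower. SELENOS, a selenoprotein of the degradation channel, was at 46.7 and 43.9 CPM in batch 1 and at 178 and 142 CPM in batch 2, a rise of 1.82 ± 0.28 (log2, SE). SEC62, a channel partner, was at 53.2 and 80.5 CPM in batch 1 and at 325 and 159 CPM in batch 2, a rise of 1.78 ± 0.27. SEC62 was not called by limma, where the difference was 0.76, and it was 2.24 with the transcript of most reads. Between the CDH3-AS1 libraries alone SELENOS differed by 1.72 and SEC62 by 1.02 (log2).

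Of 23 tested other regulators of the response, 6 were called lower in batch 2 and 2 higher, and the median log2 difference of the list was -0.19. ATF4, the transcription factor translated when EIF2AK3 or another eIF2α kinase is active, was at 67.3 and 75.5 CPM in batch 1 and at 10.8 and 14.6 CPM in batch 2. It fell by 2.43 ± 0.33 (log2, SE), with an adjusted p of 4.79e-11 in edgeR. Both batch 1 libraries lay above both batch 2 libraries, and the siRNAs differed by 0.20 and 0.46 (log2) within the batches.

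TRIB3, DDIT3 and PPP1R15A, known targets of ATF4, are given next because they were among the 6, and were picked after their values were seen. CREB3 and WFS1 were also called lower. The same list held ATF3, CEBPB, CHAC1 and STC2, which were not among its called genes. TRIB3, a pseudokinase, was at 28.2 and 36.9 CPM in batch 1 and at 4.98 and 5.75 CPM in batch 2, and fell by 2.46 ± 0.41 (log2, SE). DDIT3 (CHOP), a transcription factor of prolonged stress, was at 50.5 and 46.3 CPM in batch 1 and at 16.9 and 17.2 CPM in batch 2. PPP1R15A (GADD34), which brings a phosphatase to eIF2α, was at 344 and 391 CPM in batch 1 and at 139 and 190 CPM in batch 2. DESeq2 called ATF4, TRIB3, DDIT3 and PPP1R15A as well, and limma called ATF4 and TRIB3 at a pseudocount of 1 and none of the 4 at 0.1. The 2 called higher were BLOC1S1, a known cleavage target of ERN1, and NFYB, a subunit of the factor that binds CCAAT. Among the called genes, HSP90B1, PDIA3, ERO1A and DNAJC3 were higher in batch 2 and ATF4, TRIB3, DDIT3 and PPP1R15A lower, in the control pair and in the CDH3-AS1 pair. These genes were picked because the same libraries called them, so the agreement of the pairs is no separate support. In the main edgeR fit HSPA5 and CALR were not called, and the members HERPUD1 and XBP1 were lower by 0.44 and 0.78 (log2) without a call.

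Reads outside the coding sequence were examined because ribosomes stop at the coding sequence's end, and few fragments are expected in the 3′ UTR. Of the 35 genes, 4 had at least 10 reads in the 3′ UTR in every library (CALR, P4HB, SEC61A1 and CALU), and PPIB was followed as well, as the list's rule names it. In PPIB the 3′ UTR held 3 of 2425 reads in control replicate 1 (0.124%, 95% Clopper-Pearson interval 0.0255 to 0.361%) and 72 of 9415 in CDH3-AS1 replicate 1 (0.765%, 0.599 to 0.962%). It held 16 of 7865 reads in control replicate 2 (0.203%, 0.116 to 0.330%) and 90 of 5437 in CDH3-AS1 replicate 2 (1.66%, 1.33 to 2.03%). The share was 6.18 times the control's in batch 1 and 8.14 times in batch 2, and the intervals of the groups did not overlap, though they cover counting error only. The batch 1 ratio rests on 3 control reads. PPIB was named by a rule set with earlier results of these data known, so the lack of overlap is no separate support.

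All 181 of these PPIB reads lay on its main coding transcript, whose 3′ UTR has 283 bases. The share over all genes of a library was 3.48% and 1.03% in the controls and 2.28% and 1.62% in the CDH3-AS1 libraries, so with CDH3-AS1 siRNA it was lower in batch 1 and higher in batch 2, unlike that of PPIB. Of 498 genes with at least 100 such reads in all, 17 (3.41%) had a share at least 2-fold higher in both batches, PPIB among them. PPIB reached that minimum mainly through the 72 and 90 reads of its CDH3-AS1 libraries, so nothing is read from its place in that count. The cause of the PPIB difference was not tested.

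In the other members the 3′ UTR reads depended on how transcripts are listed. P4HB had 557 such reads, none of them on the transcript with most of its reads, and 299 on a transcript with a coding sequence of 165 bases and 0 coding-sequence reads. CALR and SEC61A1 also had 0 of their 146 and 239 reads on that transcript, and CALU 8 of 225. Shares ranged from 0.0907% to 0.405% in CALR, from 1.02% to 2.85% in P4HB, from 1.26% to 2.97% in SEC61A1 and from 0.933% to 2.97% in CALU. Those of SEC61A1 did not overlap, at 1.26% and 2.22% in the controls and 2.70% and 2.97% with CDH3-AS1 siRNA. Both CDH3-AS1 libraries lay above both controls in 89 of the 498 genes, and in 2 of 6 members, PPIB and SEC61A1. PPIB reached the minimum for this count mainly through its CDH3-AS1 libraries, and 127 of the 239 reads of SEC61A1 came from CDH3-AS1 replicate 1. Nothing is therefore read from the place of these members in the count.

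In the 5′ UTR, HSPA5, DNAJB11, ERO1A, SEC61B and CALU had at least 10 reads in every library. SEC61B is the small tail-anchored subunit of the channel. Its 82-base 5′ UTR held 53 of 213 reads in control replicate 1 (24.9%, 95% Clopper-Pearson interval 19.2 to 31.2%) and 251 of 691 in CDH3-AS1 replicate 1 (36.3%, 32.7 to 40.0%). It held 54 of 561 reads in control replicate 2 (9.63%, 7.31 to 12.4%) and 125 of 349 in CDH3-AS1 replicate 2 (35.8%, 30.8 to 41.1%). The CDH3-AS1 libraries lay within 0.359 percentage points (SD) of their mean, while the controls lay apart, with an SD of 10.8 points. Coding-sequence levels of SEC61B were 86.8 and 89.2 CPM in the controls and 68.4 and 83.9 CPM with CDH3-AS1 siRNA.

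HSPA5 had 5′ UTR shares of 7.05% and 5.53% in the controls and 8.25% and 8.47% in the CDH3-AS1 libraries. All 831 of these reads were listed on a transcript without coding-sequence reads, so the shares depend on the listing. That transcript has a coding sequence of 1872 bases, against 1965 in the transcript with most reads. Whether the reads lie inside the longer coding sequence was not tested. Both CDH3-AS1 libraries lay above both controls in 62 of 1399 genes (4.43%) with at least 100 such reads, and in 2 of 7 members, SEC61B and HSPA5. ERO1A had shares of 29.6% and 15.4% in the controls and 18.2% and 31.1% in the CDH3-AS1 libraries, which overlapped, and DNAJB11 3.29% and 5.30% against 3.96% and 10.4%. All 705 of the ERO1A 5′ UTR reads were likewise listed on a transcript without coding-sequence reads, so its shares depend on the listing. The share over all genes ranged from 3.81% to 7.09%.

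For XBP1 the listed transcripts separate the protein of 376 residues, the product of ERN1 splicing, from that of 261 residues, the unspliced product. A further listed transcript, of 266 residues, held 16.4% and 10.8% of the coding-sequence reads in control replicates 1 and 2. In CDH3-AS1 replicates 1 and 2 that transcript held 7.39% and 7.08%. The longer form held 39 of 140 coding-sequence reads in control replicate 1 (27.9%, 95% Clopper-Pearson interval 20.6 to 36.1%) and 195 of 406 in CDH3-AS1 replicate 1 (48.0%, 43.1 to 53.0%). It held 92 of 204 in control replicate 2 (45.1%, 38.1 to 52.2%) and 50 of 113 in CDH3-AS1 replicate 2 (44.2%, 34.9 to 53.9%). Control replicate 1 lay below the other 3 libraries, which agree within counting error, and in batch 2 the siRNAs did not differ beyond it. Most of the sequence is shared between the forms, and the rule by which a shared read was given to a transcript is not given in the sources used here, so the share is that of the listing and not a measure of splicing.

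**Figure D4:**
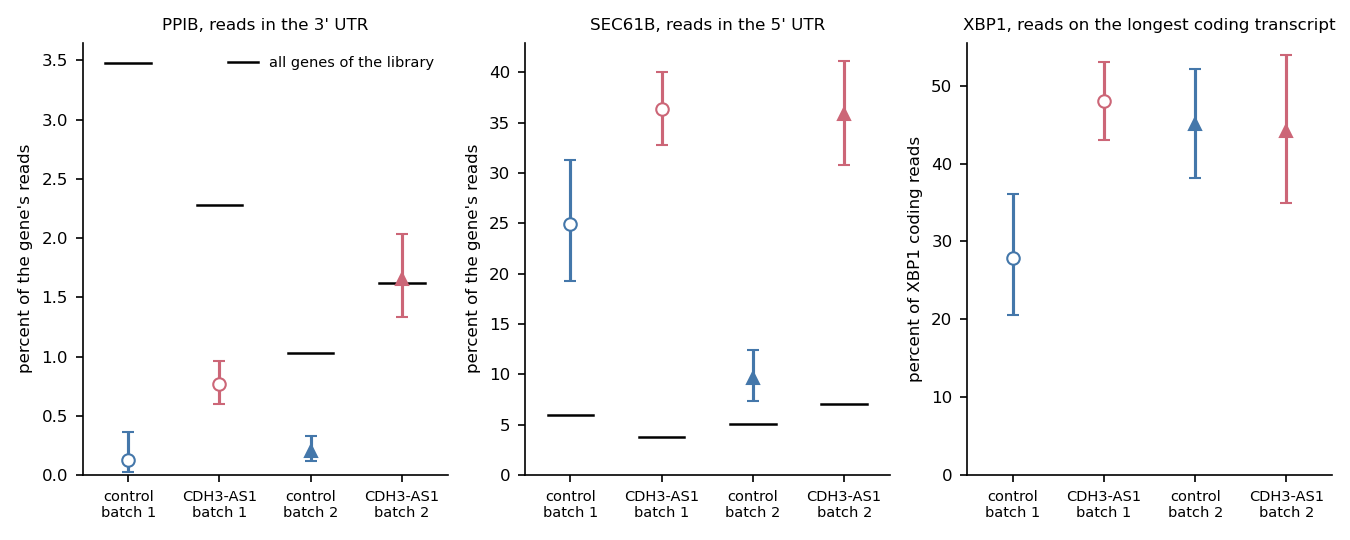
Share of PPIB reads in the 3′ UTR (left), of SEC61B reads in the 5′ UTR (middle) and of XBP1 coding-sequence reads on its longest coding transcript (right), in percent, 1 point per library with exact 95% binomial intervals for counting error. Black bars, in the left and middle panels only, give the share over all genes of that library. PPIB lies at 0.124 and 0.203% in the controls and 0.765 and 1.66% with CDH3-AS1 siRNA, SEC61B at 24.9 and 9.63% against 36.3 and 35.8%, and for XBP1 only control replicate 1, at 27.9%, stands below the rest.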

How the data were processed

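Each library's table listed reads per transcript in the 5′ UTR, the coding sequence, the 3′ UTR and all regions, per the file headers, as raw counts deposited by the authors, beside RPKM values that the authors computed. The submitters' processing notes name hg38 and DESeq2; no source used here gives the aligner, how reads shared by transcripts were treated, or whether strand was used. Coding-sequence counts were summed by gene name; names that share reads with near-identical copies could not be separated. The test was edgeR 4.0.16 (R 4.3.3, quasi-likelihood, TMM, filterByExpr minimum count 10 and minimum total 15, Benjamini-Hochberg over 10469 genes, threshold 0.05). It was run on simulated counts drawn without a batch difference, so that check does not cover the batch differences of these data. Batch 2 against batch 1 used the same model with the siRNA as a term. Differences within a batch are of edgeR log2 CPM (prior count 2), and CPM uses coding-sequence totals.

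The labels give same-numbered libraries one batch, and their deviations from the group means correlated at r = 0.58, so the numbers pair the samples. DESeq2 1.42.0, limma 3.58.1 on the deposited RPKM, other scalings, filters and left-out libraries were alternatives. Genes were named when called by any fit, when the siRNA groups did not overlap with at least 0.5 (log2) in both batches, or as central regulators; SYVN1, SEC61A1, DNAJB11, EDEM1, SEC61B and other members described individually, and the pathway genes named, were chosen after their values were seen. The gene list, the other lists and the tests were chosen with earlier results of these data known. Intervals cover counting error only.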

Additional observations from a re-analysis of the deposited data

How the results depend on the processing

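A fit without 1 library unbalances the batches, and with 1 library left in an arm that library is assumed to vary like the others. The count of genes called between the siRNAs then ranged from 0 to 73, the members' median log2 fold change from 0.023 (without CDH3-AS1 replicate 2) to 0.44 (without control replicate 2), and 0 of the members were called each time. All 33 tested members were refitted, and 20 of them were followed by name, some chosen after their values were seen. Over these settings the siRNA log2 fold change spanned 0 in 10 of these 20: -0.15 to 0.44 for ATF6, -0.37 to 0.70 for CALU, -0.57 to 1.32 for DNAJC3, -0.49 to 0.95 for EIF2AK3, -0.57 to 1.17 for ERO1A, -0.47 to 1.47 for HSP90B1, -0.29 to 0.51 for MANF, -0.61 to 0.82 for PDIA3, -0.55 to 0.54 for UGGT1 and -0.43 to 0.63 for XBP1. The replicate block (pairing by batch) raised the siRNA count from 0 to 170 genes in edgeR and to 55 in DESeq2, changed no member's call, and made the members' median 0.20 in DESeq2. DESeq2 without it called 2 genes, no filter on low counts gave 52, and library totals without TMM gave a median of 0.090. XBP1, near 0 in the siRNA comparison, changed sign to 0.0062 with RLE scaling, 0.0035 with DESeq2, 0.0043 without a filter, 0.011 with at least 50 reads, 0.039 with the block and 0.054 with the block in DESeq2. CALU turned to -0.00080 with library totals and to -0.08 with limma at either pseudocount (-0.0756 and -0.0755), ERO1A to -0.026 with library totals, and EIF2AK3 to -0.094 with the transcript of most reads. Between batches, DESeq2 called 680 genes and 5 members, limma 268 and 1, limma with a pseudocount of 0.1 called 9 and 0, and the fit with no siRNA term (no replicate block) 538 and 4. ERN1's batch difference turned to 0.27 and 0.30 in the limma fits at pseudocounts 1 and 0.1. Counts of batch calls with a library left out were not run, since such a fit leaves no residual degrees of freedom. Members with enough 3′ UTR reads numbered 8 at a minimum of 5 and 1 at 20. The HSPA5 5′ UTR share has no value on the transcript with most reads. The cause of these changes was not tested. Control replicate 1 has the fewest reads, which limits EIF2AK3, ERN1, DNAJB9 and ERO1B most.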
